A study of Caenorhabditis elegans with 12 samples.

Results

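The genes described here encode 10 transcription factors of the nematode Caenorhabditis elegans that are known from work on lifespan, on stress resistance and on the intestine and epidermis. They are the GATA factors elt-2, elt-7, elt-3 and elt-6, the forkhead factors pha-4 and daf-16, the zinc finger gene pqm-1, the Nrf-type gene skn-1, the TFEB-type gene hlh-30 and the nuclear receptor nhr-49. Members were taken from the deposited count table by their WormBase gene symbol, and all 10 were found among its 46748 genes, of which 28963 had at least 1 count. The rule that picks them is a list of symbols, and this list was chosen with earlier results of these data known.

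RNA of whole hermaphrodites of the wild-type strain N2 was sequenced in 12 libraries, in 4 groups of 3. The groups were 15-day worms that had received 100 nM rotenone, 15-day worms given 0.1% DMSO, 5-day worms that had received 100 nM rotenone and 5-day worms given 0.1% DMSO. Rotenone, an inhibitor of respiratory complex I, was given for 24 h from the L4 larval stage. The labels state neither when age counting began, nor how long DMSO was given, nor whether rotenone worms received DMSO, nor whether replicates were separate cultures, so that p-values measure the spread between these libraries, which may be technical.

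GATA factors bind short GATA sites and set the identity of intestinal and epidermal cells, and ELT-2, together with ELT-7, controls most genes of the differentiated intestine. DAF-16, the FOXO factor, enters the nucleus when insulin-like signalling is low, while PQM-1 is nuclear when that signalling is high. SKN-1, HLH-30 and NHR-49 control detoxification, autophagy and lysosomes, and fat metabolism. DAF-16, PQM-1, SKN-1 and HLH-30 are regulated in large part through their location or stability, so that a transcript level does not measure their activity.

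The 12 libraries held between 34307432 and 53716605 counts in genes, and 17166 genes passed the filter on low counts, among them all 10 members. Levels are CPM, the usual share of a library's counts, scaled with TMM factors, and the adjusted p given below is that of edgeR's quasi-likelihood test with Benjamini-Hochberg adjustment over all 17166 genes, with a threshold of 0.05. The summed level of 18 intestine markers was 1664 to 1779 CPM in 15-day rotenone worms, 1692 to 1787 CPM in 15-day DMSO worms, 5503 to 5959 CPM in 5-day rotenone worms and 8204 to 8711 CPM in 5-day DMSO worms, and none of these markers was at 0. At 5 days the intestine sum rested largely on the protease genes asp-1 and cpr-1. These stood at 1825 and 1446 CPM in rotenone and 3078 and 2224 CPM in DMSO worms. Germline and oocyte markers summed to 10953 to 11428 CPM in 15-day rotenone, 11064 to 11116 CPM in 15-day DMSO, 10403 to 10795 CPM in 5-day rotenone and 10884 to 11064 CPM in 5-day DMSO worms. Of these 16 markers, 0 were called up and 7 down with rotenone at 5 days, beside 21.3% and 23.3% of all tested genes. With library totals in place of TMM factors 8 were called up and 3 down, beside 6500 and 1772 of 17166 genes. With age in DMSO 8 were called up and 4 down, beside 35.2% and 40.9%. After rotenone 8 were called up and 3 down with age, beside 36.6% and 42.9%. Early embryo markers summed to 15.4 to 17.7 CPM in 15-day rotenone, 14.1 to 15.1 CPM in 15-day DMSO, 12.58 to 13.2 CPM in 5-day rotenone and 10.8 to 11.2 CPM in 5-day DMSO worms, and sperm markers to at most 9.76 CPM, with msp-10 and msp-19 at 0 in every 5-day DMSO library. In whole-animal RNA, fewer cells of a type and less RNA per cell cannot be told apart, and the part of tissue or germline content in the differences below was not tested.

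**Figure D1:**
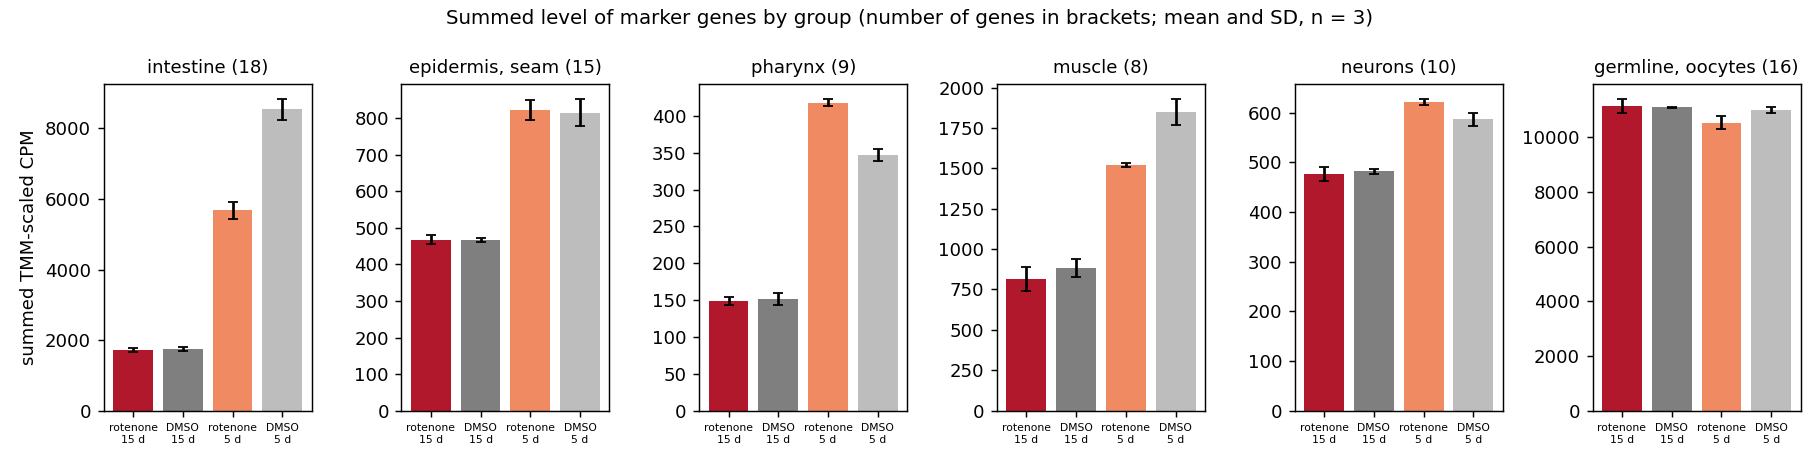
Summed TMM-scaled CPM of the marker genes of 6 tissues in the 4 groups (bars, mean; whiskers, SD over 3 libraries; number of genes in brackets; every axis starts at 0). The intestine, epidermis, pharynx, muscle and neuron sums were lower in 15-day than in 5-day worms, and the germline sum varied from 10403 to 11428 CPM over all libraries. The epidermis difference between ages in DMSO lay mainly in the collagen genes col-19 and sqt-3.

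Per kilobase of exon, the order of the factors had skn-1 at the top and the intestinal and epidermal GATA genes at the bottom. In 15-day rotenone worms skn-1 stood at 142 ± 2.43 CPM per kb (SD, n = 3), nhr-49 at 98.7 ± 2.95, daf-16 at 63.1 ± 1.71, pqm-1 at 26.8 ± 1.38 and hlh-30 at 20.8 ± 0.470. Below them came elt-3 at 9.06 ± 0.621, pha-4 at 8.02 ± 0.158, elt-6 at 7.78 ± 0.450, elt-2 at 7.54 ± 0.384 and elt-7 at 6.68 ± 0.358 CPM per kb. The order of the means was the same in 15-day DMSO worms, from skn-1 at 139.8 ± 3.05 to elt-7 at 6.06 ± 0.513 CPM per kb, and at this age the libraries of pha-4 and elt-6 and those of elt-6 and elt-2 overlapped in both groups.

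At 5 days the order of pqm-1 and daf-16 differed between the groups. In 5-day rotenone worms pqm-1 stood at 46.8 ± 0.388 CPM per kb, below daf-16 at 50.9 ± 0.821, and in 5-day DMSO worms pqm-1 stood at 59.4 ± 0.824, above daf-16 at 53.5 ± 0.585. Both orders were free of overlap between libraries, but the order after rotenone turned round when the gene length implied by the authors' RPKM table replaced the exon length. In 5-day worms pha-4 was above elt-3, at 19.5 ± 0.420 against 16.8 ± 1.14 CPM per kb after rotenone, while in DMSO the libraries of the pair overlapped. The lowest of the 10 at 5 days was elt-6, at 10.4 ± 0.496 CPM per kb after rotenone and 8.06 ± 0.243 in DMSO. Among 17021 genes with a length, skn-1 lay at percentile 94.8 per kb in 5-day DMSO worms, nhr-49 at 90.8, pqm-1 at 85.1, daf-16 at 83.4, elt-2 at 56.0 and elt-6 at 52.1.

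**Figure D2:**
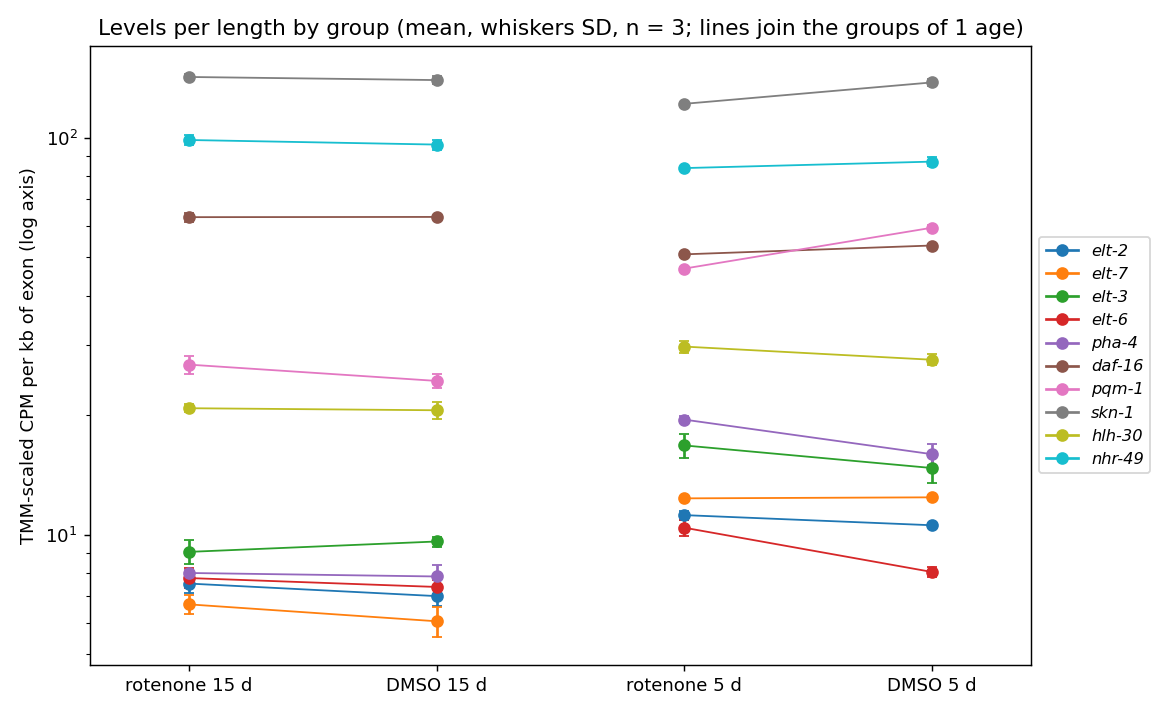
Level of each of the 10 factors in TMM-scaled CPM per kb of exon on a log axis (points, mean; whiskers, SD over 3 libraries), with the groups on the horizontal axis and lines joining the 2 groups of 1 age. skn-1, nhr-49 and daf-16 held the 3 highest places at 15 days, and pqm-1, pha-4 and elt-7 stood lower at 15 than at 5 days.

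Between 15 and 5 days in DMSO, daf-16 and nhr-49 rose and pqm-1, elt-7, pha-4, elt-3, elt-2 and hlh-30 fell, that is 2 up and 6 down of 10, beside 35.2% up and 40.9% down of all tested genes. pqm-1 had the largest log2 difference, -1.28 ± 0.041 (standard error of the fit), followed by elt-7 (-1.03 ± 0.067) and pha-4 (-1.02 ± 0.052). The median of all tested genes was -0.060. After rotenone, daf-16, nhr-49 and skn-1 rose with age and the other 7 fell, beside 36.6% up and 42.9% down of all tested genes. Calls in either direction were about as frequent among the factors, 8 and 10 of 10, as among all genes. The 15-day libraries did not overlap the 5-day libraries for 9 of 10 factors in DMSO and for 10 of 10 after rotenone, beside 77.0% and 81.3% of all tested genes.

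Rotenone changed 7 of the 10 transcripts in 5-day worms and none past the threshold in 15-day worms. At 5 days elt-6, pha-4, elt-3 and hlh-30 rose and pqm-1, skn-1 and daf-16 fell, beside 21.3% up and 23.3% down of all tested genes, and the libraries did not overlap for 8 of 10 factors, beside 54.3% of all genes. All 7 differences were under 1.5-fold, with pqm-1 at -0.34 ± 0.038 and elt-6 at 0.37 ± 0.056 on the log2 scale the largest. At 15 days 0 of 10 passed in edgeR's quasi-likelihood test and 0 in DESeq2, beside 0.280% up and 0.128% down of all genes, and 1 factor, pqm-1, had an unadjusted p under 0.05 and libraries that did not overlap, beside 11.1% of all genes.

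The rotenone difference itself changed with age for 5 factors. The difference at 15 days minus that at 5 days was above 0 for pqm-1 (0.47 ± 0.058) and skn-1 (0.20 ± 0.037) and below 0 for elt-6 (-0.29 ± 0.083), elt-3 (-0.27 ± 0.092) and pha-4 (-0.27 ± 0.072). All genes had 15.4% up and 10.3% down in this contrast. Under 19 alternative settings the call of pqm-1 held in all. That of elt-3 was lost in 9, that of skn-1 in 2 and those of pha-4 and elt-6 in 1 each. The comparisons between pairs of groups share libraries, so that a group that stands apart enters more than 1 of them.

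Signs of small differences at 5 days rested on the scaling of libraries. With library totals in place of TMM factors, the median of all genes in rotenone against DMSO at 5 days was 0.15 instead of 0.026 on the log2 scale, and the genes called became 6500 up and 1772 down in place of 3662 up and 4006 down. In the interaction the median was -0.15 instead of -0.012 and the calls became 939 up and 4296 down in place of 2643 and 1776, and after rotenone the median between ages was -0.19 instead of -0.091. Under library totals pha-4, elt-3, elt-6 and hlh-30 still rose and pqm-1 still fell at 5 days, elt-2 rose, skn-1 did not pass, and daf-16 turned sign.

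Every difference called between 2 groups had the same sign in the 3 sequencing lanes, each of which held 1 library of every group. This held for 7 of 7 factors in rotenone against DMSO at 5 days, for 8 of 8 in age in DMSO and for 10 of 10 in age after rotenone. Where the libraries of 2 groups do not overlap, the sign within lanes is fixed in advance. Of these calls only that of elt-3 at 5 days had overlapping libraries, so that the counts add no separate support. Within lanes the 5-day rotenone difference of pqm-1 lay between -0.36 and -0.33, that of elt-6 between 0.34 and 0.41, that of pha-4 between 0.24 and 0.36 and that of skn-1 between -0.20 and -0.16. The lanes differed more for elt-3, at 0.024 to 0.36, and hlh-30, at 0.025 to 0.16. Between ages in DMSO, pqm-1 lay between -1.36 and -1.23 within lanes, elt-7 between -1.16 and -0.92, pha-4 between -1.12 and -0.95 and daf-16 between 0.21 and 0.25.

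**Figure D3:**
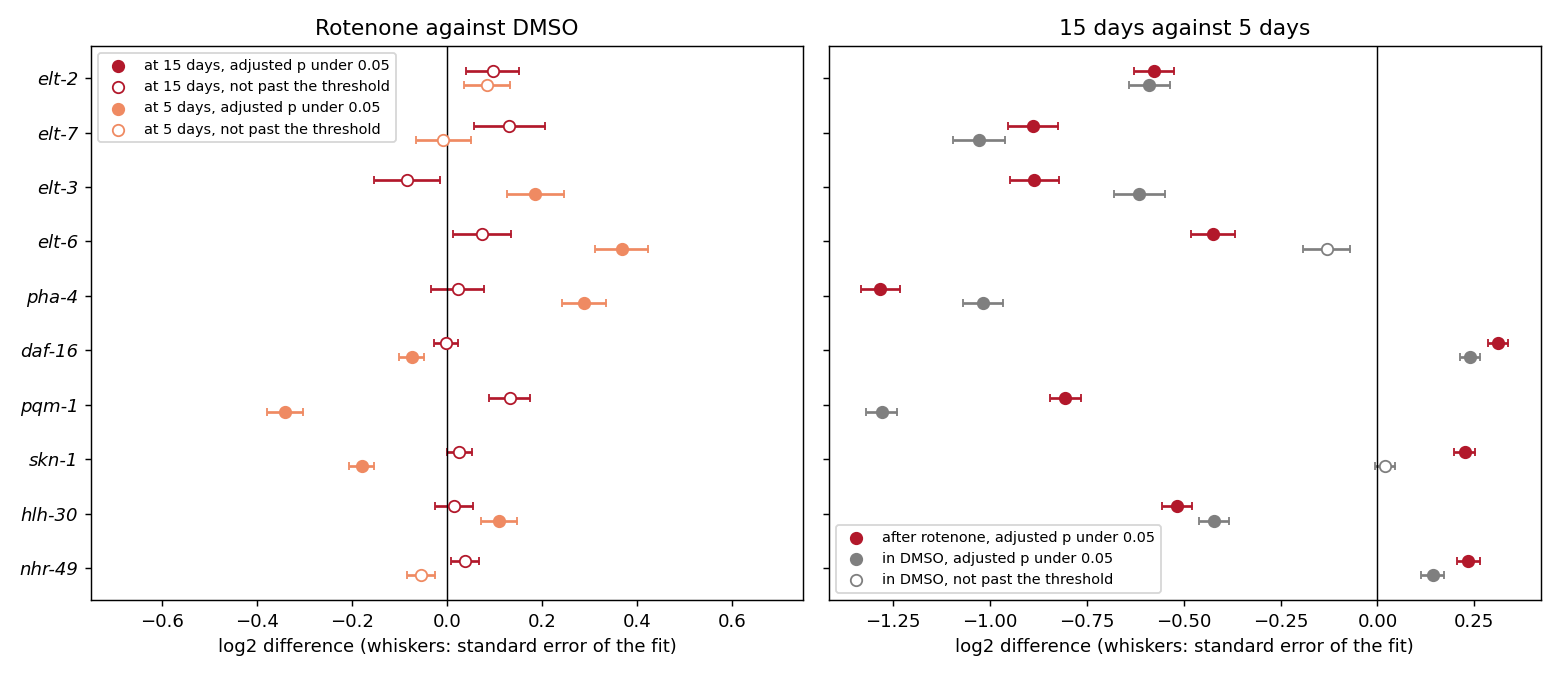
Log2 difference of each factor with the standard error of the edgeR fit (whiskers), on the left for rotenone against DMSO at 15 and at 5 days and on the right for 15 against 5 days after rotenone and in DMSO; filled points passed an adjusted p of 0.05. All rotenone points at 15 days are open, and on the right daf-16 and nhr-49 lie above 0 while pqm-1, pha-4 and elt-7 lie between -1.28 and -0.81.

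**Figure D4:**
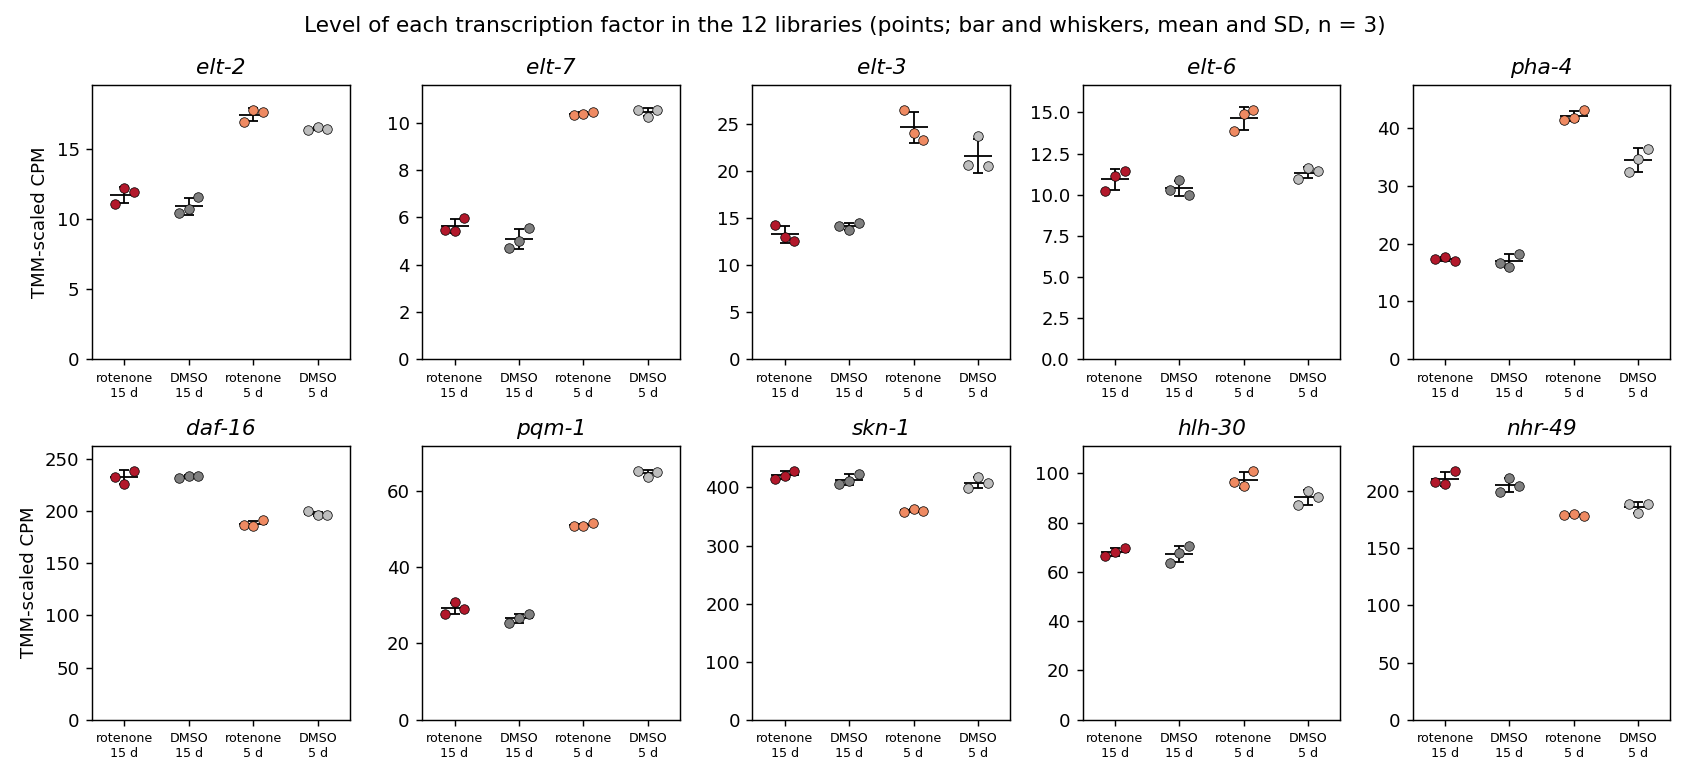
TMM-scaled CPM of each factor in the 12 libraries (points), with the mean and SD of each group of 3; axes start at 0 and differ between genes. The 15-day groups lie below the 5-day groups for elt-2, elt-7, elt-3, pha-4, pqm-1 and hlh-30 and above them for daf-16 and nhr-49.

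The intestinal GATA factors fell with age and gave no call after rotenone. elt-2 (WBGene00001250, chromosome X, 10481240 to 10483441, plus strand, genome build WBcel235 for all positions) encodes the main GATA factor of the intestine. Its level was 11.1, 12.2 and 11.9 CPM in 15-day rotenone and 10.5, 10.7 and 11.6 CPM in 15-day DMSO worms. At 5 days it was 16.9, 17.8 and 17.6 CPM in rotenone and 16.4, 16.6 and 16.5 CPM in DMSO worms. All 15-day libraries lay below all 5-day libraries, and within 15 days the groups overlapped. elt-2 fell by 0.59 on the log2 scale with age in DMSO (SE 0.053, edgeR adjusted p = 4.54e-09) and by 0.58 after rotenone (SE 0.051, edgeR adjusted p = 2.98e-09). At 5 days the 3 rotenone libraries lay above the 3 DMSO libraries, but the difference of 0.084 ± 0.048 did not pass (edgeR adjusted p = 0.171, 95% interval -0.017 to 0.19); with library totals it was 0.20 and passed (edgeR adjusted p = 0.00156).

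elt-7 (WBGene00015981, chromosome V, 4770670 to 4773086, plus strand), which acts beside elt-2 in the intestine, had the lowest counts of the 10 factors, 170 to 541 per library. It stood at 5.46, 5.43 and 5.97 CPM in 15-day rotenone and 4.71, 5.01 and 5.56 CPM in 15-day DMSO worms. In 5-day worms it stood at 10.3, 10.4 and 10.5 CPM with rotenone and 10.6, 10.3 and 10.5 CPM with DMSO. The ages were far apart, while rotenone and DMSO libraries overlapped at each age. elt-7 fell with age by 1.03 in DMSO (SE 0.067, edgeR adjusted p = 3.22e-11) and by 0.89 after rotenone (SE 0.064, edgeR adjusted p = 1.39e-10). Its rotenone difference was -0.0079 at 5 days, with a 95% interval of -0.13 to 0.11, and 0.13 at 15 days, with an interval of -0.024 to 0.29.

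Of the 18 intestine markers, 16 fell and 2 rose with age in DMSO, with a median log2 difference of -1.19, a larger drop than the -0.59 of elt-2 and near the -1.03 of elt-7. For this and every list below, genes counted as rising or falling are those called. Of all tested genes, 35.2% were called up and 40.9% down with age in DMSO, and 36.6% and 42.9% with age after rotenone. With rotenone the shares were 21.3% and 23.3% at 5 days and 0.280% and 0.128% at 15 days, and in the interaction 15.4% and 10.3%. List counts with library totals stand beside other shares of the 17166 genes. These were 6500 (37.9%) up and 1772 down with rotenone at 5 days and 939 (5.47%) up and 4296 down in the interaction. With age after rotenone they were 5404 (31.5%) up and 8186 down. After rotenone 16 of the 18 markers fell and 2 rose with age (median -0.99). In 5-day worms 11 of the 18 markers fell and 2 rose after rotenone (median -0.16), while elt-2 and elt-7 gave no call. With library totals 8 fell and 5 rose (median -0.037), and elt-2 passed as a rise. The difference between these medians and the 2 factors was not tested.

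The epidermal GATA factors rose after rotenone at 5 days. elt-3 (WBGene00001251, chromosome X, 13934874 to 13941216, plus strand) is a GATA factor of the epidermis that has been linked to adult ageing in C. elegans. It had 14.3, 12.99 and 12.55 CPM in 15-day rotenone and 14.1, 13.7 and 14.5 CPM in 15-day DMSO worms. Among 5-day worms it had 26.5, 24.1 and 23.3 CPM after rotenone and 20.6, 23.7 and 20.5 CPM in DMSO. The ages did not overlap, whereas 1 DMSO library at 5 days lay above the lowest rotenone library. elt-3 fell with age by 0.61 in DMSO (SE 0.066, edgeR adjusted p = 5.60e-08) and by 0.89 after rotenone (SE 0.064, edgeR adjusted p = 1.33e-10). The rise after rotenone at 5 days, 0.19 ± 0.060 (edgeR adjusted p = 0.0159), did not pass without the first rotenone library (0.14, edgeR adjusted p = 0.106), the first DMSO library (0.16, edgeR adjusted p = 0.0700) or DMSO library 3 (0.15, edgeR adjusted p = 0.0748). The change in the rotenone difference between the ages was -0.27 ± 0.092 (edgeR adjusted p = 0.0371). It did not pass with DESeq2's size factors (-0.24, edgeR adjusted p = 0.0505) or in DESeq2's Wald test (-0.25, adjusted p = 0.0586). Nor did it pass without any 1 of 7 libraries (edgeR adjusted p = 0.0634 to 0.101), namely the first and last in each of the DMSO groups, the first 5-day rotenone library and the last 2 of the 15-day rotenone libraries.

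elt-6 (WBGene00001253, chromosome IV, 1917977 to 1921643, plus strand) starts 136 bases downstream of egl-18, its neighbour on the same strand (WBGene00001252, chromosome IV, 1902322 to 1917840), and the pair encodes related GATA factors of the seam cells of the epidermis. Both have been reported to act on elt-3 in ageing C. elegans. elt-6 stood at 10.2, 11.1 and 11.5 CPM in 15-day rotenone and 10.3, 10.9 and 10.004 CPM in 15-day DMSO worms. At 5 days it reached 13.9, 14.9 and 15.2 CPM after rotenone against 10.95, 11.6 and 11.4 CPM in DMSO. The 3 rotenone libraries at 5 days were above the other 9 libraries, and the rise of 0.37 ± 0.056 (1.29-fold, edgeR adjusted p = 2.65e-05) passed under all 20 alternatives. After rotenone elt-6 fell with age (-0.43 ± 0.057, edgeR adjusted p = 1.02e-06). In DMSO the age difference of -0.13 ± 0.060 just missed the threshold (edgeR adjusted p = 0.0553) and passed under 7 alternatives, with the sequencing lane as a block (-0.13, edgeR adjusted p = 0.0464), without a low count filter (-0.17, edgeR adjusted p = 0.0265) and without 5-day DMSO library 1, 15-day DMSO library 2, 5-day rotenone library 1 or 15-day rotenone library 1 or 3 (edgeR adjusted p = 0.0355 to 0.0495). The rotenone difference was smaller at 15 than at 5 days (-0.29 ± 0.083, edgeR adjusted p = 0.0133; DESeq2 -0.27, adjusted p = 0.0524).

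egl-18 had the opposite sign to elt-3 between ages in DMSO. It stood at 67.7 ± 2.08 CPM in 15-day rotenone and 65.1 ± 2.33 CPM in 15-day DMSO worms, and at 66.5 ± 1.74 CPM in 5-day rotenone and 56.6 ± 2.91 CPM in 5-day DMSO worms (SD, n = 3). It rose after rotenone at 5 days (0.23 ± 0.040, edgeR adjusted p = 1.04e-04) and rose with age in DMSO (0.20 ± 0.041, edgeR adjusted p = 1.54e-04), whereas after rotenone its age difference was 0.024 ± 0.040 and did not pass. elt-1, the GATA factor that specifies the epidermis in the embryo, rose after rotenone at 5 days (0.40 ± 0.045), with age in DMSO (0.57 ± 0.045) and with age after rotenone (0.22 ± 0.043), and at 15 days the rotenone differences of egl-18 (0.053) and elt-1 (0.044) did not pass.

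Of 8 other GATA-type genes listed, 6 were tested and the endoderm genes med-1 and med-2 were not. With age in DMSO 4 rose and 2 fell, led by the endoderm gene end-3 (0.86 ± 0.22) and by elt-4 (-0.73 ± 0.22), a small relative of elt-2, and after rotenone 3 rose and 2 fell, with end-3 at 0.83 ± 0.20 and end-1 at -1.16 ± 0.24. end-1, end-3 and elt-4 stayed at or under 1.09 CPM in every group mean, and end-1 and end-3 are genes of the early embryo. After rotenone at 5 days 2 of 6 rose (elt-1 and egl-18) and 0 fell. In the interaction elt-1 was at -0.36 ± 0.063 (edgeR adjusted p = 4.13e-04) and egl-18 at -0.18 ± 0.057 (edgeR adjusted p = 0.0257, and 0.0583 with DESeq2's size factors).

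Epidermis and seam markers summed to 457 to 481 CPM in 15-day rotenone, 462 to 473 CPM in 15-day DMSO, 797 to 849 CPM in 5-day rotenone and 774 to 843 CPM in 5-day DMSO worms. Between ages in DMSO the difference of this sum lay mainly in the collagen genes col-19 and sqt-3. These stood at 21.9 and 25.4 CPM in 15-day DMSO worms and at 292.5 and 110.4 CPM in 5-day DMSO worms. The sums of rotenone and DMSO worms overlapped at 5 days, while 7 of 15 markers rose and 2 fell (median 0.23; 9 and 1 with library totals). With age in DMSO 6 rose and 7 fell (median -0.15). elt-1 and egl-18 are themselves among these 15 markers.

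pha-4 (WBGene00004013, chromosome V, 20753052 to 20760317, plus strand), the FoxA factor that specifies the pharynx and is needed for the long life of diet-restricted worms, rose after rotenone at 5 days and fell with age. It had 17.4, 17.6 and 16.9 CPM in 15-day rotenone and 16.7, 15.9 and 18.3 CPM in 15-day DMSO worms. In 5-day worms it had 41.5, 41.7 and 43.1 CPM after rotenone and 32.3, 34.6 and 36.4 CPM in DMSO. Every rotenone library at 5 days was above every DMSO library, and at 15 days the groups overlapped. The rise at 5 days was 0.29 ± 0.046 (1.22-fold, edgeR adjusted p = 4.77e-05). With age pha-4 fell by 1.02 in DMSO (SE 0.052, edgeR adjusted p = 6.39e-13) and by 1.28 after rotenone (SE 0.050, edgeR adjusted p = 9.86e-15), and at 15 days the rotenone difference was 0.023 with a 95% interval of -0.094 to 0.14. The interaction of -0.27 ± 0.072 (edgeR adjusted p = 0.0111) did not pass without 15-day DMSO library 3 (-0.20, edgeR adjusted p = 0.0609).

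The 9 pharynx markers summed to 143 to 153 CPM in 15-day rotenone, 144 to 160.0 CPM in 15-day DMSO, 415 to 423 CPM in 5-day rotenone and 338 to 354 CPM in 5-day DMSO worms. After rotenone at 5 days 6 of 9 rose and 0 fell (median 0.36), while 3 did not pass, among them phat-3 at -0.063, and with age in DMSO 9 of 9 fell (median -1.50). The part of pharynx content in the differences of pha-4 was not tested.

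daf-16 and pqm-1 moved apart with age. daf-16 (WBGene00000912, chromosome I, plus strand), the FOXO factor below the insulin-like receptor, was at 233, 226 and 239 CPM in 15-day rotenone and 232, 234 and 233 CPM in 15-day DMSO worms. Its 5-day levels were 186, 185 and 191 CPM after rotenone and 199.8, 196 and 196 CPM in DMSO. All 15-day libraries lay above all 5-day libraries. daf-16 rose with age by 0.24 ± 0.026 in DMSO (1.18-fold, edgeR adjusted p = 8.00e-08) and by 0.31 ± 0.026 after rotenone (1.24-fold, edgeR adjusted p = 1.32e-09). At 5 days it fell after rotenone by little, -0.074 ± 0.026 (edgeR adjusted p = 0.0278), and this call was lost without a low count filter (edgeR adjusted p = 0.0726) and without rotenone library 1 or 2 or DMSO library 1 or 3 (edgeR adjusted p = 0.0546 to 0.126), and it turned to 0.046 with library totals. At 15 days the difference was -0.0019 with a 95% interval of -0.057 to 0.053.

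pqm-1 (WBGene00004096, chromosome II, 11150391 to 11152595, minus strand), a zinc finger factor that acts on the class II genes of the insulin pathway, had the largest age difference of the 10 in DMSO. It was at 27.7, 30.7 and 29.1 CPM in 15-day rotenone and 25.4, 26.7 and 27.6 CPM in 15-day DMSO worms. At 5 days it was at 50.7, 50.6 and 51.4 CPM after rotenone and 65.2, 63.5 and 64.8 CPM in DMSO. The 4 groups did not overlap, 5-day DMSO worms were highest, and the 15-day groups were 27.7 CPM at the lowest with rotenone against 27.6 CPM at the highest with DMSO. pqm-1 fell after rotenone at 5 days (-0.34 ± 0.038, 0.789-fold, edgeR adjusted p = 7.28e-07), and this call held in all 20 alternatives. With age it fell by 1.28 in DMSO (SE 0.041, 0.412-fold, edgeR adjusted p = 5.38e-16) and by 0.81 after rotenone (SE 0.040, 0.572-fold, edgeR adjusted p = 4.71e-13). At 15 days the difference of 0.13 ± 0.043 had a 95% interval of 0.042 to 0.22 and did not pass over all genes (edgeR adjusted p = 0.371), while the change in the rotenone difference between the ages did (0.47 ± 0.058, edgeR adjusted p = 9.60e-06).

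Upstream of DAF-16, daf-2, the insulin-like receptor gene, gave no call in any comparison, with 172 ± 9.68 CPM in 15-day rotenone, 162 ± 3.77 CPM in 15-day DMSO, 174 ± 3.82 CPM in 5-day rotenone and 165 ± 3.07 CPM in 5-day DMSO worms (SD, n = 3). Of 13 genes of insulin-like signalling, 6 rose and 4 fell with age in DMSO (median 0.067) and 8 rose and 4 fell after rotenone (median 0.18). All tested genes had 35.2% up and 40.9% down with age in DMSO, and 36.6% and 42.9% after rotenone. The kinase gene pdk-1 had the largest rise in both (1.16 ± 0.045 and 1.07 ± 0.044), the 14-3-3 gene ftt-2 the largest fall in DMSO (-0.74 ± 0.032) and ist-1, an insulin receptor substrate, the largest fall after rotenone (-0.59 ± 0.078). Rotenone at 5 days gave 2 rises, led by pdk-1 (0.14 ± 0.047; edgeR adjusted p = 0.0525 with DESeq2's size factors), and 6 falls, led by ftt-2 (-0.32 ± 0.032), but 6 rises and 1 fall with library totals. Without rotenone library 1 or 2 or DMSO library 1 or 3 the falls were 3, and without rotenone library 3 or DMSO library 2 the rises were 1. ftt-2 had the largest interaction above 0 (0.38 ± 0.045, edgeR adjusted p = 8.62e-06).

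Partners and modifiers of DAF-16 had 6 rises and 2 falls of 9 with age in DMSO (median 0.21) and 6 and 2 after rotenone (median 0.29). smk-1, a cofactor of DAF-16, rose most (0.75 ± 0.032 and 0.84 ± 0.032) and the kinase gene jnk-1 fell most (-1.14 ± 0.093 and -1.60 ± 0.090). After rotenone at 5 days 2 rose and 5 fell, with jnk-1 at 0.30 ± 0.077 and the methyltransferase gene prmt-1 at -0.38 ± 0.029, and the counts were 4 and 1 with library totals. In the interaction prmt-1 was at 0.38 ± 0.041 (edgeR adjusted p = 2.49e-06) and jnk-1 at -0.46 ± 0.13 (edgeR adjusted p = 0.0172).

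Known targets of DAF-16 mostly fell with age, while daf-16 rose. In DMSO 8 of 10 fell and 2 rose (median -1.52), and after rotenone 7 fell and 2 rose (median -0.99). All tested genes had 40.9% down and 35.2% up with age in DMSO, and 42.9% and 36.6% after rotenone. The metallothionein gene mtl-1 had the largest fall, to 60.9 ± 1.43 CPM in 15-day DMSO worms against 439.9 ± 8.30 CPM in 5-day DMSO worms (SD, n = 3, -2.85 ± 0.039, and -2.33 ± 0.038 after rotenone). The small heat shock gene hsp-12.6, at 0.613 to 3.94 CPM in the group means, had the largest rise (2.56 ± 0.17 and 1.95 ± 0.15). At 5 days rotenone gave 5 falls, led by dod-3 (-0.96 ± 0.074), and 1 rise, hsp-12.6 (0.72 ± 0.21), with a median of -0.34, and 5 falls and 2 rises with library totals or, for the rises, without DMSO library 2. At 15 days icl-1 of the glyoxylate cycle was the sole called rise (0.46 ± 0.039, edgeR adjusted p = 1.49e-06). In the interaction 6 were called above 0, led by dod-3 (1.04 ± 0.13), and 0 were called below 0. With library totals and without 5-day rotenone library 3 or 5-day DMSO library 3, 1 was called below 0. Interaction values that were not called reached -0.61. Several of these targets are expressed in the intestine, whose marker sum was lower in 5-day rotenone than in 5-day DMSO worms and lower at 15 than at 5 days. The part of intestine content in the differences of these targets was not tested.

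Class II genes, the group associated with PQM-1, split. Of 7 tested (dod-21 was not), 4 rose and 3 fell with age in DMSO (median 1.05) and 3 rose and 3 fell after rotenone (median -0.11). dod-24 rose most (1.73 ± 0.24 and 2.79 ± 0.25), with 6.64 ± 0.979 CPM in 15-day DMSO worms against 2.02 ± 0.425 CPM in 5-day DMSO worms (SD, n = 3), and dod-20, under 0.70 CPM in every group mean, fell most (-1.34 ± 0.26 and -2.57 ± 0.29). At 5 days rotenone gave 1 rise (dod-17, 0.72 ± 0.25) and 2 falls, led by dod-24 (-0.85 ± 0.32; edgeR adjusted p = 0.0612 with library totals), against 3 and 1 with library totals. The rise was lost without any 1 DMSO library or without rotenone library 3, and the falls were 1 without rotenone library 1 or 3 or DMSO library 1 or 2. In the interaction dod-24 was at 1.06 ± 0.37 (edgeR adjusted p = 0.0418, and 0.0632 with library totals) and dod-20 at -1.23 ± 0.43 (edgeR adjusted p = 0.0443). Calls below 0 in the interaction numbered 2, and 1 with the sequencing lane as a block.

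**Figure D5:**
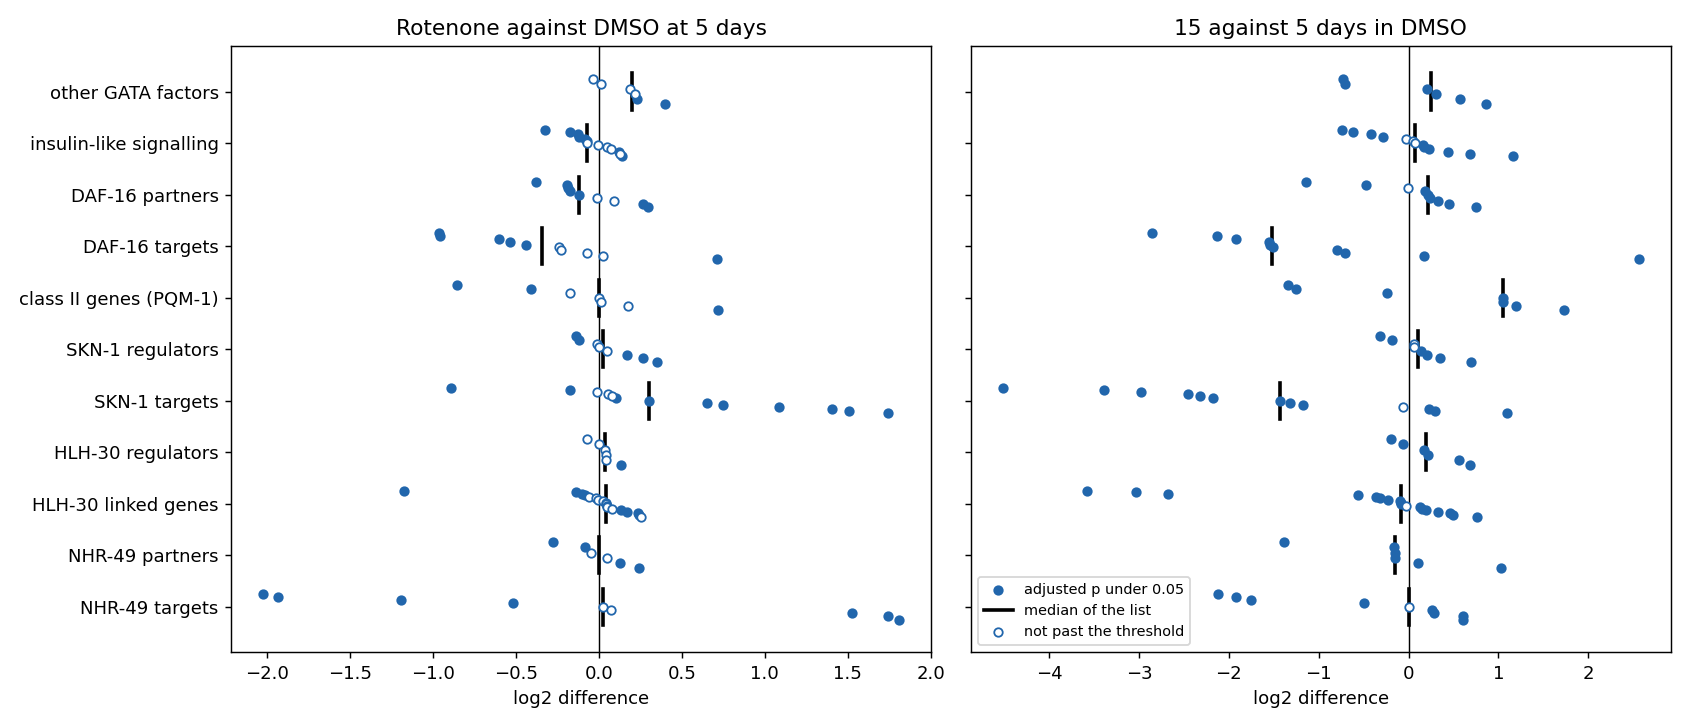
Log2 difference of each gene of 11 lists tied to the factors (points; filled where the edgeR adjusted p was under 0.05; bars, median of the list) for rotenone against DMSO at 5 days (left) and 15 against 5 days in DMSO (right), with axes of different ranges. Known SKN-1 and DAF-16 targets lie mostly below 0 on the right, with medians of -1.43 and -1.52, and at 5 days their medians are 0.30 and -0.34.

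skn-1 (WBGene00004804, chromosome IV, 5651039 to 5660384, minus strand), the Nrf-type factor of detoxification, had the highest level per kb of the 10 in every group. It was at 415, 419.6 and 429 CPM in 15-day rotenone and 406, 411 and 424 CPM in 15-day DMSO worms. At 5 days it was at 359, 363 and 359.6 CPM after rotenone and 399.6, 418 and 407 CPM in DMSO. The 5-day rotenone libraries stood below the other 9, which overlapped. skn-1 fell after rotenone at 5 days (-0.18 ± 0.026, 0.883-fold, edgeR adjusted p = 2.01e-05; with library totals -0.059, edgeR adjusted p = 0.0569) and rose with age after rotenone (0.22 ± 0.026, edgeR adjusted p = 1.93e-07). In DMSO its age difference of 0.020 ± 0.026 had a 95% interval of -0.036 to 0.075 and did not pass, although it passed at 0.082 with DESeq2's size factors (edgeR adjusted p = 0.0110). The gene shares 41 exon bases, 1.39% of its exons, with csn-5 on the opposite strand, and the library kit named in the labels does not mark strand. The change in its rotenone difference with age, 0.20 ± 0.037 (edgeR adjusted p = 5.50e-04), was 0.070 with library totals (edgeR adjusted p = 0.139).

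Among the regulators of SKN-1, wdr-23, whose product marks SKN-1 for degradation, fell with age in DMSO (-0.31 ± 0.033, edgeR adjusted p = 4.90e-08) and after rotenone (-0.29 ± 0.033, edgeR adjusted p = 1.39e-07) and gave no call with rotenone at 5 days (-0.0075) or 15 days (0.019). Of 8 regulators, 4 rose and 2 fell with age in DMSO (median 0.10), and 4 rose and 3 fell after rotenone (median 0.076). The phosphatase gene pgam-5 rose most (0.70 ± 0.030 and 0.70 ± 0.030), and the kinase gene sek-1 fell most after rotenone (-0.48 ± 0.041). At 5 days rotenone raised 3, led by sek-1 (0.35 ± 0.041) of the p38 pathway, and lowered 2, led by brap-2 (-0.14 ± 0.030), but 6 rose and 0 fell with library totals. The falls were 1 without DMSO library 1 or rotenone library 3. In the interaction sek-1 was at -0.30 ± 0.059 (edgeR adjusted p = 0.00110) and brap-2 at 0.12 ± 0.042 (edgeR adjusted p = 0.0385, a call lost at -0.013 with library totals).

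Known targets of SKN-1 rose after rotenone at 5 days in 8 of 13 cases and fell in 2, while skn-1 itself fell (median 0.30, and 10 and 1 with library totals). All tested genes had 21.3% up and 23.3% down in this comparison, and with library totals 6500 up and 1772 down of 17166. The glutathione transferase gene gst-14 reached 42.9 ± 1.19 CPM in rotenone worms against 12.8 ± 1.29 CPM in DMSO worms (SD, n = 3, 1.74 ± 0.057), and gst-10 had the largest fall (-0.89 ± 0.094). With age in DMSO 9 fell and 3 rose (median -1.43), with gst-14 at -4.52 ± 0.12 and dhs-8, a dehydrogenase gene, at 1.10 ± 0.086. After rotenone 10 fell and 3 rose (median -2.01), with gst-14 at -6.17 ± 0.10 and gcs-1, which makes glutathione precursors, at 0.48 ± 0.031. In the interaction 7 were called below 0, led by gst-14 (-1.65 ± 0.25), and 2 above, led by gst-10 (0.68 ± 0.17). With library totals 11 were called below 0 and 1 above, beside 4296 and 939 of all 17166 tested genes. Members of the gst family resemble one another in sequence, so that their single values are uncertain.

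hlh-30 (WBGene00020930, chromosome IV, 4014793 to 4034951, minus strand), the TFEB-type factor of autophagy and lysosomes, fell with age and rose slightly after rotenone at 5 days. It was at 66.6, 68.02 and 69.7 CPM in 15-day rotenone and 63.8, 67.7 and 70.4 CPM in 15-day DMSO worms. In 5-day worms it was at 96.3, 94.7 and 101 CPM after rotenone and 87.3, 93.02 and 90.3 CPM in DMSO. Ages did not overlap, and at 5 days the lowest rotenone library lay just above the highest DMSO library. hlh-30 fell with age by 0.42 in DMSO (SE 0.039, edgeR adjusted p = 6.36e-09) and by 0.52 after rotenone (SE 0.038, edgeR adjusted p = 2.09e-10). The rise of 0.11 ± 0.038 at 5 days (edgeR adjusted p = 0.0235) was lost with DESeq2's size factors (0.086, edgeR adjusted p = 0.0765), in DESeq2's Wald test (adjusted p = 0.0866) and without the first DMSO library (edgeR adjusted p = 0.0921) or rotenone library 3 (edgeR adjusted p = 0.125).

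mxl-3, a repressor of lysosomal lipase genes and counterpart of HLH-30, was 1 of 70 genes called after rotenone at 15 days. It rose to 32.8 ± 1.90 CPM in 15-day rotenone worms, against 28.05 ± 1.45 CPM in 15-day DMSO worms (SD, n = 3, 0.23 ± 0.046, edgeR adjusted p = 0.0288), while at 5 days its difference was -0.070 ± 0.045 and did not pass. The 15-day call was lost with library totals and without rotenone library 1 or 3 or DMSO library 1 or 3 of that age, or 5-day rotenone library 1. With age mxl-3 fell in DMSO (-0.20 ± 0.046) and rose after rotenone (0.11 ± 0.045; with library totals 0.0053, edgeR adjusted p = 0.922), and its interaction was 0.30 ± 0.065 (edgeR adjusted p = 0.00205, and 0.0707 with library totals). Of 6 regulators, 4 rose and 2 fell with age in DMSO (1 with DESeq2's size factors, with library totals and without DMSO library 2 or 3 of 5 days or 1 or 3 of 15 days) and 5 rose and 1 fell after rotenone, with the exportin gene xpo-1 the largest rise (0.68 ± 0.037 and 0.72 ± 0.037) and the folliculin gene flcn-1 the fall after rotenone (-0.21 ± 0.026). flcn-1 was also the sole called rise with rotenone at 5 days (0.13 ± 0.026, while 5 rose with library totals). In the interaction flcn-1 was the sole gene called below 0 (-0.14 ± 0.037). With library totals 3 were called below 0 and 0 above.

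Autophagy, lysosome and lipase genes linked to HLH-30 split with age, beside 35.2% up and 40.9% down of all tested genes in DMSO. In DMSO 7 of 18 rose, led by the beclin gene bec-1 (0.76 ± 0.035), and 10 fell, led by the lysosomal lipase gene lipl-1, at 7.51 ± 1.11 CPM in 15-day against 89.9 ± 2.90 CPM in 5-day DMSO worms (SD, n = 3, -3.57 ± 0.066). lipl-2 (-2.68), lipl-3 (-3.04) and the vacuolar ATPase genes vha-15, vha-16 and vha-17 (-0.56, -0.32 and -0.36) fell too, and lgg-1, lgg-2, unc-51, atg-16.2, atg-18 and vps-11 rose. With DESeq2's size factors, and also with library totals, 7 rose and 7 fell with age in DMSO. After rotenone 6 rose and 11 fell, with bec-1 at 0.72 ± 0.035 and lipl-1 at -3.70 ± 0.066, but 7 rose and 6 fell with DESeq2's size factors and 4 rose and 12 fell with library totals. At 5 days rotenone raised 4, led by the autophagy receptor gene sqst-1 (0.25 ± 0.035), and lowered 4, led by lipl-2 (-1.17 ± 0.064), against 12 up and 1 down with library totals. The falls were 2 without library 1 or 2 of either 5-day group. In the interaction lipl-2 was at 1.24 ± 0.12 (edgeR adjusted p = 9.12e-07) and atg-2 at -0.22 ± 0.045 (edgeR adjusted p = 0.00150).

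nhr-49 (WBGene00003639, chromosome I, plus strand), a nuclear receptor that controls fat desaturation and fat oxidation, rose slightly with age. It was at 208, 206 and 218 CPM in 15-day rotenone and 199, 211 and 205 CPM in 15-day DMSO worms. At 5 days it was at 179, 179.8 and 178 CPM after rotenone and 189, 180.4 and 188 CPM in DMSO. The 15-day libraries were all above the 5-day libraries. nhr-49 rose by 0.14 ± 0.030 in DMSO (edgeR adjusted p = 2.25e-04) and by 0.23 ± 0.029 after rotenone (1.18-fold, edgeR adjusted p = 4.46e-07). With rotenone it gave no call at 5 days (-0.054, 95% interval -0.12 to 0.0078) or at 15 days (0.038, -0.023 to 0.10).

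mdt-15, the mediator subunit that works with NHR-49, fell slightly after rotenone at 5 days (-0.081 ± 0.027, edgeR adjusted p = 0.0226; with library totals 0.040, edgeR adjusted p = 0.251) and with age in DMSO (-0.16 ± 0.028, edgeR adjusted p = 2.64e-05), and did not pass with age after rotenone (-0.032) or with rotenone at 15 days (0.050). Of 6 partners and regulators, 2 rose and 4 fell with age in DMSO (1 rose without 5-day library 2 or 15-day library 3) and 1 rose and 3 fell after rotenone (2 and 1 with DESeq2's size factors, 1 and 4 with library totals). The falls in DMSO were 3 with DESeq2's size factors and 3 with library totals. The nuclear receptor genes nhr-67 (1.03 ± 0.066 and 0.81 ± 0.062) and nhr-80 (-1.38 ± 0.062 and -1.21 ± 0.062) led the 2 directions, as they did with rotenone at 5 days (0.24 ± 0.069 and -0.28 ± 0.053, 2 up and 2 down; 3 and 1 with library totals). The falls at 5 days were 1 without rotenone library 1 or 2 or DMSO library 2 or 3. In the interaction mdt-15 passed at 0.13 ± 0.039 (edgeR adjusted p = 0.0192), a call that was lost with library totals and without 5-day rotenone library 1 or 2 or 5-day DMSO library 3.

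Targets of NHR-49 showed wide differences beside the small ones of nhr-49. After rotenone at 5 days 3 of 9 rose, led by hacd-1 of fat oxidation (1.81 ± 0.052), and 4 fell, led by the desaturase gene fat-7 (-2.02 ± 0.10), against 5 and 4 with library totals. At 15 days 4 of 9 rose and 0 fell, beside 0.280% up and 0.128% down of all tested genes. The 4 were acs-2 (0.88 ± 0.037), fmo-2 (0.77 ± 0.10), icl-1 (0.46 ± 0.039) and acs-11 (0.19 ± 0.037), with 3 rises under library totals, where acs-11 did not pass (edgeR adjusted p = 0.0559). With age the list split, 4 up and 4 down in DMSO, with acs-2 at 0.61 ± 0.039 and fat-7 at -2.12 ± 0.11, and 4 up and 4 down after rotenone, with fat-5 at 2.07 ± 0.049 and fmo-2 at -2.51 ± 0.069. The interaction had 5 called above 0, led by fat-7 (1.99 ± 0.16), and 3 called below, led by hacd-1 (-1.89 ± 0.075). nhr-49 itself differed by 0.038 at 15 days and -0.054 at 5 days on the log2 scale, and icl-1 stands in both the DAF-16 and the NHR-49 list. Of all 121 listed genes tested, 5 were called after rotenone at 15 days, mxl-3 and the 4 just named, all of them up. Among the 121 genes, 16 (13.2%) had an unadjusted p under 0.05, beside 1236 (7.20%) of all tested genes. The lists were chosen with earlier results of these data known, so that the 2 shares cannot serve as a test. The desaturase genes fat-6 and fat-7 resemble each other in sequence, so that their single values are uncertain.

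Among 18 other factors known from lifespan or stress studies, 4 rose and 11 fell with age in DMSO (median -0.14), and 5 rose and 10 fell after rotenone (median -0.20; 3 and 12 with library totals). The Max-like gene mxl-1 rose most (0.47 ± 0.037 and 0.54 ± 0.037), the homeobox gene ceh-23, under 1 CPM, fell most in DMSO (-1.75 ± 0.30), and blmp-1 fell most after rotenone (-1.32 ± 0.056). At 5 days rotenone gave 6 rises, led by the nuclear receptor gene nhr-25 (0.43 ± 0.054), and 4 falls, led by ceh-23 (-0.70 ± 0.24; edgeR adjusted p = 0.0565 with library totals), against 12 and 1 with library totals. The falls were 2 without rotenone library 2 or DMSO library 1. In the interaction ceh-23 was at 1.36 ± 0.42 (edgeR adjusted p = 0.0222) and nhr-25 at -0.33 ± 0.081 (edgeR adjusted p = 0.00538).

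Across the 12 libraries, which share the split by age and the sequencing lanes, the factors other than elt-6 and skn-1 fell into 2 courses. pha-4 and hlh-30 (Pearson r = 0.988), elt-2 and elt-7 (0.987) and daf-16 and nhr-49 (0.963) followed each other, and daf-16 and pha-4 ran opposite (-0.988). elt-6 and skn-1, the pair with the smallest age difference in DMSO, were at -0.884 and followed the other factors less closely. With pqm-1 their r was 0.536 and -0.479. Many other genes followed the same course as a factor. Of 8054 genes of at least 10 CPM on average, 2102 had a Pearson r above 0.95 with daf-16, 1201 with pha-4, 893 with pqm-1, 59 with skn-1 and 10 with elt-6. The 2 genes most like elt-2 were nta-1 (r = 0.992) and fdgt-1 (0.992), those most like elt-7 were F26F12.3 (0.996) and pept-2 (0.995), and those most like pqm-1 were dhs-28 (0.998) and endu-2 (0.997). For elt-3 they were tmem-24 (0.988) and inx-12 (0.987), for elt-6 nhr-22 (0.965) and mak-2 (0.964), and for pha-4 zfh-2 (0.999) and eva-1 (0.998). npp-20 (0.996) and hrpf-2 (0.996) came closest to daf-16, cogc-3 (0.980) and apb-1 (0.977) to skn-1, cab-1 (0.995) and pes-4 (0.995) to hlh-30, and T24B8.7 (0.989) and hecd-1 (0.984) to nhr-49.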

How the data were processed

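Whole-worm RNA of 12 libraries in 4 groups of 3 was analysed from 2 tables. Per the submitters' processing notes, bcl2fastq 1.8.3, STAR 2.4.1d, featureCounts 1.4.6-p4 and build WBcel235 were used, with no role, setting or annotation release given in the sources used here. The deposited count table holds the authors' raw counts per gene. The deposited RPKM table holds the authors' counts per kb and per library total, but the 12 totals repeat down its columns, so that 8.33% of its values carry their own library's total and the others are off by factors of 0.639 to 1.57. RPKM was therefore rescaled and used in an alternative only.

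Counts were filtered (filterByExpr, minimum count 10) and scaled with TMM factors. 1 model of 4 groups without covariates was fitted over all 12 libraries with edgeR 4.0.16 in R 4.3.3 (quasi-likelihood test, Benjamini-Hochberg adjusted p under 0.05, biological coefficient of variation 3.41%). Standard errors were taken from the log2 differences and the F statistics. The interaction subtracts the log2 effect of rotenone at 5 days from that at 15 days. Non-overlap means that all 3 libraries of a group lay above or below all 3 of the other. Alternatives were DESeq2 size factors, library totals, no filter, at least 1 CPM in 3 libraries, DESeq2 1.42.0, limma 3.58.1 on log2(RPKM + 0.1), the replicate number as a block, the libraries of a comparison alone and leaving out each library.

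Levels per kb use the exon length in the Ensembl annotation of WBcel235, in which 46449 of 46748 gene IDs were found. Likeness is Pearson's r of log2 CPM over 12 libraries among genes with a symbol and at least 10 CPM on average. Replicate numbers match the sequencing lane in the labels. Over 18 same-numbered pairs, deviations from group means correlated at -0.046 to 0.18, with 1 pair over 0.1. Replicates of 1 group differed by more than counting noise. Genes named are the 10 members, the largest called rise and fall of each list in each comparison, 6 preset partner genes (egl-18, elt-1, daf-2, wdr-23, mxl-3 and mdt-15) and the 2 genes most like each member, and other listed genes named with their values were chosen after these were seen. The members and lists were chosen with earlier results of these data known.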

Additional observations from a re-analysis of the deposited data

Results flagged for a closer look

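The rotenone difference was not the same at the 2 ages for 5 of the 10 factors, by the test of the difference between the ages itself (edgeR's quasi-likelihood test, adjusted over all genes), beside 15.4% of all genes called above 0 and 10.3% called below. The log2 difference at 15 days minus that at 5 days was 0.4741 for pqm-1 (edgeR adjusted p = 9.60e-06) and 0.2049 for skn-1 (edgeR adjusted p = 5.50e-04), both of which fell after rotenone at 5 days. It was -0.2943 for elt-6 (edgeR adjusted p = 0.0133), -0.2709 for elt-3 (edgeR adjusted p = 0.0371) and -0.2653 for pha-4 (edgeR adjusted p = 0.0111), all of which rose after rotenone at 5 days. Only the call of pqm-1 held in all 19 alternatives. That of elt-3 was lost in 9, that of skn-1 in 2 and those of pha-4 and elt-6 in 1 each. The summed intestine markers differed between rotenone and DMSO worms at 5 days more than at 15 days, and their part in these differences was not tested. At 5 days the sum rested largely on asp-1 and cpr-1. The median log2 difference of the 18 markers after rotenone at 5 days was -0.16, and -0.037 with library totals.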

How the results depend on the processing

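Of 200 values for each comparison between groups (10 factors under 20 alternatives), 200 kept their direction and side of the threshold for age after rotenone, 190 for age in DMSO, 186 for rotenone at 15 days and 173 for rotenone at 5 days, and in the interaction 163 of 190 did. With library totals 1 factor was called down after rotenone at 5 days in place of 3. In the interaction 1 was called above 0 in place of 2, as with limma on rescaled RPKM. With DESeq2's Wald test 1 factor was called below 0 in the interaction in place of 3. Leaving out single libraries gave 2 to 4 called rises at 5 days (2 without DMSO library 1) and 1 to 3 factors called below 0 in the interaction (1 without 15-day DMSO library 3).

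Signs turned for small differences. With library totals and with limma on rescaled RPKM, rotenone at 5 days gave 0.046 and 0.046 for daf-16, 0.11 and 0.11 for elt-7 and 0.066 and 0.066 for nhr-49, and the interaction gave -0.062 and -0.062 for daf-16, -0.12 and -0.11 for elt-2 and -0.042 and -0.042 for nhr-49. elt-7 at 5 days was 7.78e-04 with at least 1 CPM in 3 libraries. daf-16 at 15 days was 0.0015 with DESeq2's size factors, 0.0077 without a filter, 0.0023 with at least 1 CPM in 3 libraries and 0.0015 with DESeq2. skn-1 between ages in DMSO was -0.020 without a filter. Leaving out single libraries gave -0.023 to 0.0034 for elt-7 at 5 days, -0.016 to 0.021 for daf-16, -0.016 to 0.089 for pha-4 and -0.017 to 0.056 for hlh-30 at 15 days, and -0.016 to 0.066 for elt-2 in the interaction. Library totals and rescaled RPKM leave out the TMM factors, and for the other settings the cause was not tested.

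With the replicate number, which marks the sequencing lane, as a block, elt-6 passed between ages in DMSO (-0.13, edgeR adjusted p = 0.0464) and no other call on a factor changed. Of 3960 list counts under the alternatives, 3669 were within 1.5 times the main count. Low counts limit elt-7, and 3 libraries a group limit every comparison.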
